A study of Mus musculus with 9 samples.

Results

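The 10 genes examined here encode the MHC class II antigen presentation machinery of the mouse. They are Ciita, H2-Aa, H2-Ab1, H2-Eb1, Cd74, H2-DMa, H2-DMb1, H2-DMb2, H2-Oa and H2-Ob, picked by gene symbol from the 34638 genes of the deposited table. Each symbol matched 1 row, and all 10 genes passed the filter on low values used for testing. Lung RNA of 9 wild-type C57BL/6 mice was sequenced, with 3 mice per group in 3 groups, to follow allergic airway inflammation driven by the alarmin IL-33 and its response to LM8, an inhibitor of MyD88, the adaptor through which the IL-33 receptor signals. Control mice were given PBS. IL-33 mice were given 0.5 µg of recombinant mouse IL-33 into the trachea on each of days 0, 1, 2 and 3. IL-33+LM8 mice were given the same challenge after LM8 at 10 mg/kg into the peritoneum. The control and IL-33 mice were females aged 6 to 8 weeks, and their lungs were taken on day 4. For the IL-33+LM8 mice the sources used here give no age, sex or sampling day. They also do not say whether the other groups were injected with the vehicle of LM8.

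MHC class II molecules carry peptides from material taken up by a cell to its surface, where CD4+ T cells read them. In the lung they are made mainly by dendritic cells, B cells and macrophages, and alveolar type 2 epithelial cells carry them as well. H2-Aa and H2-Ab1 encode the alpha and beta chains of I-A, and H2-Eb1 encodes the beta chain of I-E. C57BL/6 mice lack the I-E alpha chain, so that I-E does not reach the surface in this strain. Cd74, the invariant chain, blocks the groove of new class II molecules and leads them to endosomes. There H2-DM (H2-DMa with H2-DMb1 or H2-DMb2) exchanges its remnant for peptide, and H2-DO (H2-Oa with H2-Ob) restrains H2-DM. Ciita, the class II transactivator, binds no DNA itself and acts on a shared promoter element through the RFX complex at the X box and NF-Y at the Y box.

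That element was searched for in the promoters of the members, and the sequences are shown for that reason. For 7 of the 10 members, 8 RefSeq (GRCm38.p6) windows of 300 bases were searched, from 250 bases before to 50 after a transcript start. Windows were not used here for H2-Ab1, Ciita and Cd74, so the counts of members below cover only the 7 searched. The letters searched, on both strands, were TGATTGG for the Y box and AACNNATG for the X box, and they were chosen after the sequences had been seen. The Y letters stood in 6 of the 7 members, against 7.82% of the 32851 promoter windows of the table, and in neither window of H2-DMa. The X letters stood in 8.86% of all windows. In 4 members the X letters came first and the Y letters followed on the same strand within 15 to 40 bases, counted from first base to first base, and this arrangement was found in 15 of the 32851 windows (0.0457%). The 15 windows belonged to 15 genes, among them H2-Eb2, a further class II gene of the locus. The 65 bases around the element are given below from 5′ to 3′, with the X and Y letters in capitals, first for the 4 members with both and then for the 2 with the Y letters alone.
H2-DMb1, chr17:34153078-34153142, plus strand: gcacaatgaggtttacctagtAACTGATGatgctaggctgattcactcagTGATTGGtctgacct
H2-DMb2, chr17:34145107-34145171, plus strand: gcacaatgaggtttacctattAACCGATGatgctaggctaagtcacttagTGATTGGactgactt
H2-Eb1, chr17:34305756-34305820, plus strand: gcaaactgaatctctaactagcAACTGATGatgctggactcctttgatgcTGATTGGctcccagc
H2-Ob, chr17:34238796-34238860, plus strand: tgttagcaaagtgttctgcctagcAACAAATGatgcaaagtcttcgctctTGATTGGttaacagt
H2-Aa, chr17:34287859-34287923, minus strand: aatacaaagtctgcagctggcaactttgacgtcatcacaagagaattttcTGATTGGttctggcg
H2-Oa, chr17:34092284-34092348, plus strand: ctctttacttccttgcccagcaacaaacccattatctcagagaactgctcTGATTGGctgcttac
The spacing from X to Y was 29 bases in H2-DMb1 and H2-DMb2, 28 in H2-Eb1 and 26 in H2-Ob. The Y letters began between position -45 in H2-Oa and position -92 in H2-DMb2, relative to the transcript start. H2-DMb1 and H2-DMb2 are neighbouring genes of close sequence, and their 2 windows are not independent examples. A match of letters is a description of the sequence and no measurement of binding.

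**Figure D1:**
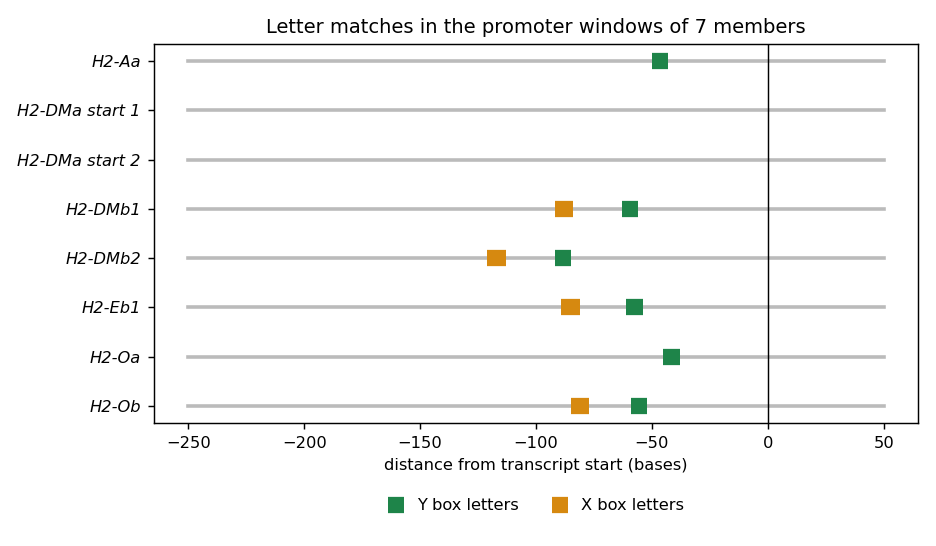
Positions of the X and Y letters in the 8 promoter windows of 7 members, drawn from 250 bases before to 50 bases after the transcript start, with the distance from the start in bases on the horizontal axis. The X letters are drawn only where the Y letters follow, in 4 genes, and they lie 26 to 29 bases upstream of them. Both windows of H2-DMa hold no Y letters.

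The deposited table gives each gene a read count and FPKM, a level corrected for transcript length and sequencing depth. Total counts per mouse ranged from 53877663 to 90607218. Within a group, mice differed by 21.9 to 50.6 times the sampling variance per gene, so that no library was a copy of another. The labelled tissue was clear from alveolar type 2 markers: the summed FPKM of 8 such genes was between 13387 and 14472 in control mice, and surfactant gene Sftpc led the list. Read counts entered the quasi-likelihood test of edgeR, fitted on the 6 mice of each comparison, with Benjamini-Hochberg adjustment over all genes tested. A gene was taken as higher or lower at an adjusted p under 0.05, and was said to be called where its log2 fold change was also at least 1 in size. A two-sided exact permutation test of 3 mice against 3 cannot give a p under 0.1, and it gave 0.1 for each member in each comparison. The labels name separate mice in each group, so p-values measure the spread between mice.

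Under IL-33 the RNA of the whole class II machinery rose. All 10 members were higher in IL-33 mice than in control mice and all 10 were called, with fold differences of mean FPKM from 2.38 for Ciita to 3.50 for H2-Ab1. Of the 16831 genes tested, 27.4% were higher, 27.2% were lower and 10.8% were called higher. The members' log2 fold changes had a median of 1.51 and a range of 1.25 to 1.81, against a median of -0.01 over all genes tested. IL-33 mice lay wholly above control mice for all 10 members and for 31.7% of the genes tested. Their summed share of all counted reads was 0.206% ± 0.00758 (SD, n = 3) in control mice, 0.606% ± 0.0153 under IL-33 and 0.325% ± 0.0259 with LM8 added. In whole lung, more cells of a type and more RNA per cell cannot be told apart.

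With LM8 the members were lower, though still above control levels. All 10 were lower in IL-33+LM8 mice than in IL-33 mice, at 47.7% of the IL-33 mean for H2-Eb1 to 63.0% for H2-Ob, where 13.9% of the genes tested were lower and 12.6% higher. The median log2 fold change was -0.82, with a range of -1.07 to -0.67. H2-Eb1 and H2-Oa were called, which is 2 of 10, where 3.93% of the genes tested were called lower. The mice did not overlap for any member, as for 22.0% of the genes tested. Set against control mice, all 10 members were still higher with LM8, with fold differences from 1.37 for H2-Oa to 2.08 for H2-DMb2 and a median log2 fold change of 0.66. Of the 16829 genes tested there, 16.3% were higher, 13.4% were lower and 5.87% were called higher, and H2-DMb2 was the 1 member called. IL-33+LM8 mice lay wholly above control mice for all 10 members, and for 23.4% of the genes tested. The comparisons share mice: the IL-33 mice enter the first and second, the IL-33+LM8 mice the second and the last, and the control mice the first and the last.

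**Figure D2:**
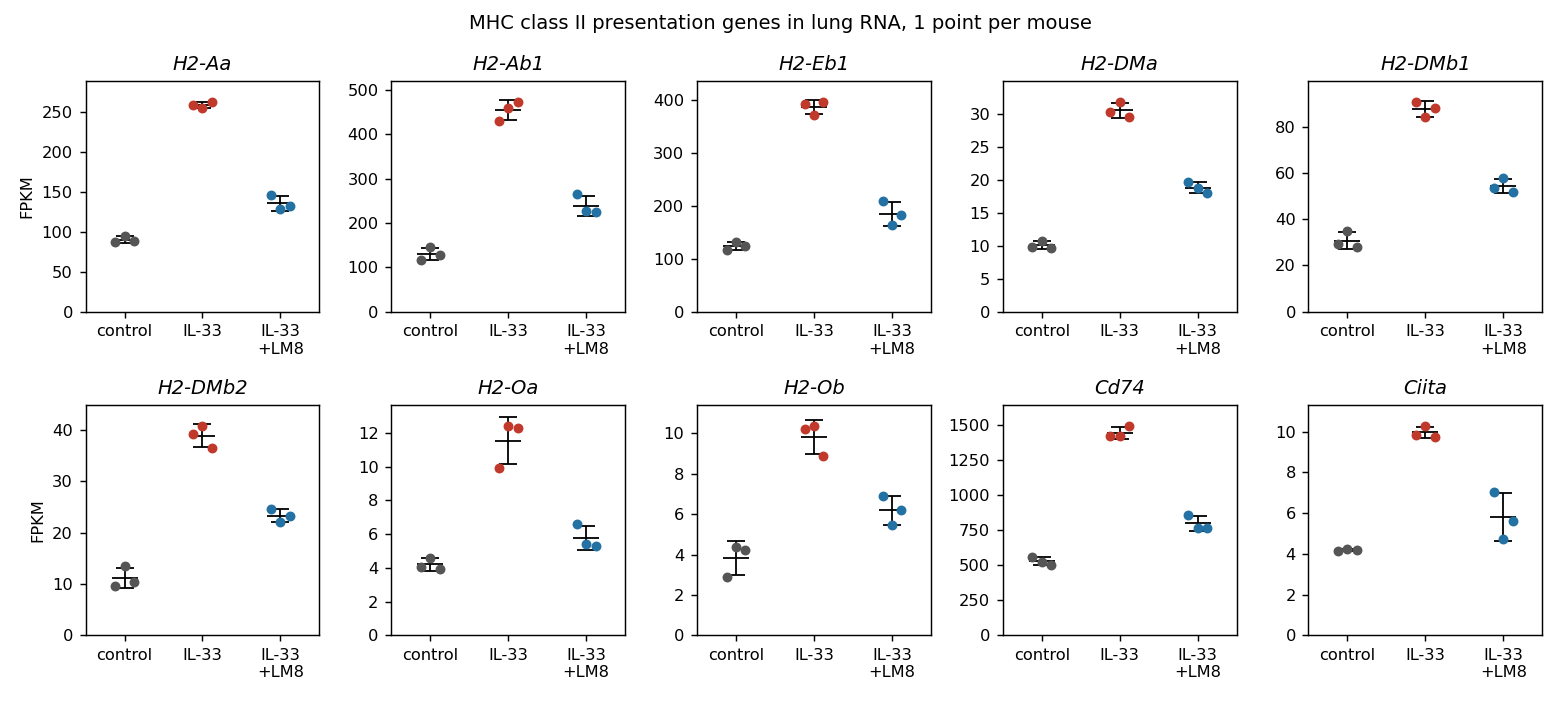
FPKM of the 10 members in lung RNA, 1 panel per gene with its own linear axis from 0 and 1 point per mouse, in control, IL-33 and IL-33+LM8 mice. Bars show the mean and the SD of 3 mice. In each panel the 3 groups are apart, with IL-33 mice highest and IL-33+LM8 mice between them and control mice.

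The transactivator had the smallest log2 difference of the members under IL-33. Ciita (ENSMUSG00000022504) lies on chromosome 16, plus strand, 10297923 to 10344290, in the table's own coordinates, as for all members here. Its FPKM was 4.12, 4.23 and 4.18 in control mice, 9.84, 10.3 and 9.75 in IL-33 mice and 7.06, 4.74 and 5.63 in the IL-33+LM8 mice. Control and IL-33 mice were tightly grouped, while the IL-33+LM8 mice were spread, with replicate 1 high and replicate 2 close to the control mice. The log2 fold change of Ciita was 1.25 (standard error 0.05, adjusted p = 2.05e-06, edgeR) under IL-33 and -0.78 (standard error 0.13, adjusted p = 0.00422) for LM8 against IL-33. Against control mice it was 0.49 with LM8 (standard error 0.13, adjusted p = 0.0302), and it no longer passed when IL-33+LM8 replicate 3 (adjusted p = 0.0663) or any 1 control mouse (0.0715 to 0.0795) was left out. The table places Dexi on the opposite strand over 23896 bases of Ciita. Dexi had at most 1055 counts in a mouse, Ciita at least 2565, and the strand setting of the counting is not given in the sources used here.

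The mRNAs of the 3 I-A and I-E chains were among the most abundant of the lung. By mean FPKM, H2-Ab1 ranked 217 of the 34638 genes in control mice and 66 in IL-33 mice, and 119 in the IL-33+LM8 mice. H2-Ab1 (ENSMUSG00000073421, chromosome 17, 34476663 to 34488393, plus strand) had 117, 145 and 127 FPKM in control mice, 430, 460 and 473 in IL-33 mice and 265, 228 and 224 in the IL-33+LM8 mice. IL-33+LM8 replicate 1 was the highest of its group and still well below each IL-33 mouse. H2-Ab1 had the largest log2 difference of the members under IL-33, 1.81 (standard error 0.09, adjusted p = 5.55e-06), followed by -0.93 for LM8 against IL-33 (standard error 0.08, adjusted p = 0.000352). Its partner chain H2-Aa (ENSMUSG00000036594, chromosome 17, 34501718 to 34506797, minus strand) had 87.0, 95.2 and 89.1 FPKM in control mice, 259, 255 and 263 in IL-33 mice and 146, 128 and 133 in the IL-33+LM8 mice. The groups were far apart relative to their spread. The log2 fold changes of H2-Aa were 1.52 (standard error 0.05) and -0.93 (standard error 0.07).

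H2-Eb1 (ENSMUSG00000060586, chromosome 17, 34524841 to 34535648, plus strand), the I-E beta chain that lacks its partner in this strain, was transcribed at levels near those of H2-Ab1. It had 118, 131 and 125 FPKM in control mice, 394, 373 and 397 in IL-33 mice and 209, 163 and 182 in the IL-33+LM8 mice. The control mice overlapped in FPKM between H2-Ab1 and H2-Eb1, while in the other groups each mouse's H2-Ab1 was above all H2-Eb1 values. H2-Eb1 rose by 1.64 on the log2 scale under IL-33 (standard error 0.06, adjusted p = 1.72e-06). It showed the largest drop of the members with LM8, -1.07 (standard error 0.09, adjusted p = 0.00028), which fell just short of the minimum, at -0.99, without IL-33+LM8 replicate 2. H2-Eb2, a related beta chain gene next to it and not a member, was measured at low levels, with 0.709 ± 0.0683 FPKM in control mice, 3.13 ± 0.652 in IL-33 mice and 1.40 ± 0.142 in the IL-33+LM8 mice (mean ± SD, n = 3). Its log2 fold changes were 2.13 (adjusted p = 9.22e-05), -1.16 (adjusted p = 0.00337) and, with LM8 against control mice, 0.99 (adjusted p = 0.00603). H2-Ea was not analysed here.

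Cd74 (ENSMUSG00000024610) was the most abundant member by FPKM in each group, ranking 44 of all genes in control mice, 19 in IL-33 mice and 33 in the IL-33+LM8 mice. Its FPKM was 558, 520 and 503 in control mice, 1418, 1420 and 1493 in IL-33 mice and 858, 767 and 767 in the IL-33+LM8 mice. The invariant chain thus stood several fold above the chains it escorts in each mouse. Its log2 fold change was 1.45 under IL-33 (standard error 0.07, adjusted p = 5.05e-06) and -0.86 for LM8 against IL-33 (standard error 0.07, adjusted p = 0.000287), and 0.61 remained over control mice (adjusted p = 0.00228).

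The peptide exchange factor H2-DM followed. H2-DMb1 (ENSMUSG00000079547, chromosome 17, 34372046 to 34379204, plus strand) had 29.4, 35.0 and 27.8 FPKM in control mice, 90.7, 84.1 and 88.1 in IL-33 mice and 53.4, 57.6 and 51.7 in the IL-33+LM8 mice. It was the 1 member for which IL-33+LM8 replicate 1 was not the highest of its group. H2-DMb2 (ENSMUSG00000037548, chromosome 17, 34362281 to 34370529, plus strand) had 9.69, 13.4 and 10.5 FPKM in control mice, 39.3, 40.8 and 36.5 in IL-33 mice and 24.5, 22.1 and 23.2 in the IL-33+LM8 mice. The control mice spread more than the others in relative terms, with replicate 2 highest. H2-DMb2 kept the largest difference from control mice with LM8, at 1.07 on the log2 scale (standard error 0.12, adjusted p = 0.00104), which was 0.99 without control replicate 1. Under IL-33 the log2 fold change was 1.79 for H2-DMb2 (standard error 0.12) and 1.51 for H2-DMb1 (standard error 0.09), and for LM8 against IL-33 it was -0.74 and -0.69. In the GENCODE transcripts, 31.4% of the 31-base words of H2-DMb1 and 36.4% of those of H2-DMb2 also occur in another gene, 517 of them in both. How reads in these stretches were divided is not given, so the split between the 2 genes is uncertain.

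H2-DMa (ENSMUSG00000037649, chromosome 17, 34338515 to 34358075, plus strand), the alpha chain, had 9.72, 10.8 and 9.68 FPKM in control mice, 30.2, 31.8 and 29.6 in IL-33 mice and 19.6, 18.8 and 17.9 in the IL-33+LM8 mice. The groups were narrow and well apart. Its log2 fold changes were 1.60 (standard error 0.06, adjusted p = 2.14e-06), -0.70 for LM8 against IL-33 (standard error 0.06, adjusted p = 0.000231) and 0.92 for LM8 against control mice (standard error 0.07, adjusted p = 0.000199). Brd2, a bromodomain gene, overlaps H2-DMa on the opposite strand over 3079 bases in the table and had up to 24565 counts in a mouse, against at least 2187 for H2-DMa. Without strand, reads from the overlap cannot be told apart.

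The H2-DO chains, which restrain H2-DM and are best known from B cells, were the members of lowest level together with Ciita. H2-Oa (ENSMUSG00000024334, chromosome 17, 34311314 to 34314208, plus strand) had 4.06, 4.61 and 3.92 FPKM in control mice, 9.94, 12.4 and 12.3 in IL-33 mice and 6.58, 5.39 and 5.29 in the IL-33+LM8 mice. IL-33+LM8 replicates 2 and 3 were not far above the highest control mouse. H2-Oa rose by 1.45 on the log2 scale under IL-33 (standard error 0.13, adjusted p = 9.73e-05) and changed by -1.0 with LM8 (standard error 0.14, adjusted p = 0.00198). That value sat at the minimum of 1. With either other filter, either other scaling, DESeq2, limma or a fit of all 9 mice it was smaller in size, down to -0.89, and H2-Oa was then not called. The same held without IL-33 replicate 2 or 3 (-0.95 in both) or IL-33+LM8 replicate 2 (-0.96) or 3 (-0.94). Against control mice the difference of 0.47 with LM8 had an adjusted p of 0.0494, and it did not pass when any of the 6 mice was left out (0.0576 to 0.132).

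H2-Ob (ENSMUSG00000041538, chromosome 17, 34457877 to 34468283, plus strand) had 2.88, 4.39 and 4.21 FPKM in control mice, 10.2, 10.4 and 8.87 in IL-33 mice and 6.89, 5.45 and 6.20 in the IL-33+LM8 mice. Control replicate 1 was low. Its log2 fold changes were 1.36 (standard error 0.16, adjusted p = 0.000285), -0.67 for LM8 against IL-33 (standard error 0.10, adjusted p = 0.00277), the smallest drop of the members, and 0.71 for LM8 against control mice (standard error 0.16, adjusted p = 0.0173).

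**Figure D3:**
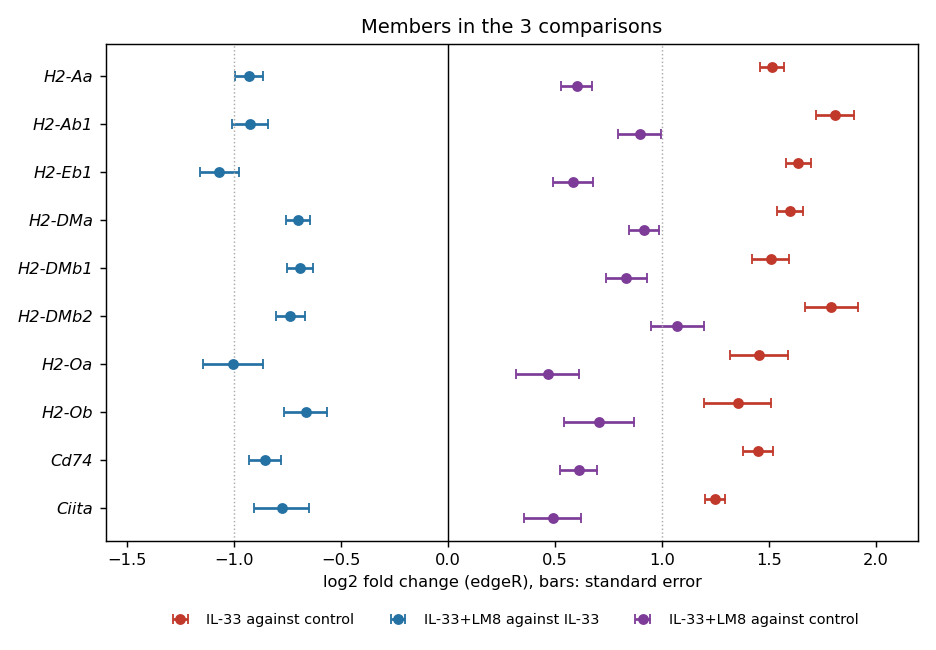
Log2 fold changes of the 10 members from edgeR in the 3 comparisons, with bars of 1 standard error and dotted lines at the minimum of 1 in either direction. The values for IL-33 against control lie between 1.25 and 1.81, those for LM8 against IL-33 between -1.07 and -0.67, and those for LM8 against control between 0.47 and 1.07.

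The order of the members by FPKM was nearly the same in the 3 groups. Cd74 was first, followed by H2-Ab1, H2-Eb1, H2-Aa, H2-DMb1, H2-DMb2 and H2-DMa, with Ciita, H2-Oa and H2-Ob last. In control mice the ranges overlapped between H2-Ab1 and H2-Eb1 and between H2-DMb2 and H2-DMa, which were apart in both other groups. The last 3 genes overlapped with their neighbours in each group. Control replicate 2 was the highest control mouse for 9 of the 10 members, and IL-33+LM8 replicate 1 the highest of its group for 9. The IL-33 mice had no such order, with replicate 2 highest for 5 members and lowest for 3, and replicate 3 highest for 4 and lowest for 4.

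Whether the members moved by equal amounts was asked with 9 ratios of FPKM between members within a mouse, in which library scaling cancels. None of the 27 differences passed, the smallest adjusted p being 0.225 (exact permutation test, Benjamini-Hochberg over 27 tests), and 3 mice against 3 could not have given an unadjusted p under 0.1. The groups did not overlap for 5 of the 9 ratios under IL-33, for 1 with LM8 against IL-33 and for 6 with LM8 against control. The ratio of Ciita to H2-Ab1 was 0.0352, 0.0292 and 0.0330 in control mice, 0.0229, 0.0224 and 0.0206 in IL-33 mice and 0.0266, 0.0208 and 0.0251 in the IL-33+LM8 mice. Each control mouse had more Ciita per H2-Ab1 than each treated mouse, with a log2 difference of -0.56 (standard error 0.09) under IL-33. The ratio of Cd74 to H2-Ab1 was 4.11 ± 0.601 in control mice, 3.18 ± 0.106 in IL-33 mice and 3.34 ± 0.0966 in the IL-33+LM8 mice (mean ± SD, n = 3). The ratio of H2-Aa to H2-Ab1 was 0.700 ± 0.0431, 0.571 ± 0.0279 and 0.569 ± 0.0216 in the same order. For both of these ratios the control mice lay above all treated mice, and the IL-33 and IL-33+LM8 mice overlapped.

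The ratio of H2-DMa to H2-Ab1 was the 1 ratio whose IL-33 and IL-33+LM8 mice were apart. It was 0.0778 ± 0.00457 in control mice, 0.0673 ± 0.00415 in IL-33 mice and 0.0788 ± 0.00452 in the IL-33+LM8 mice, so it was lowest in IL-33 mice. The ratio of H2-Oa to H2-DMa, of inhibitor to exchange factor, was 0.418, 0.429 and 0.405 in control mice, 0.329, 0.391 and 0.415 in IL-33 mice and 0.336, 0.287 and 0.295 in the IL-33+LM8 mice. Control mice lay above all IL-33+LM8 mice, by 0.45 on the log2 scale, and overlapped with IL-33 mice.

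**Figure D4:**
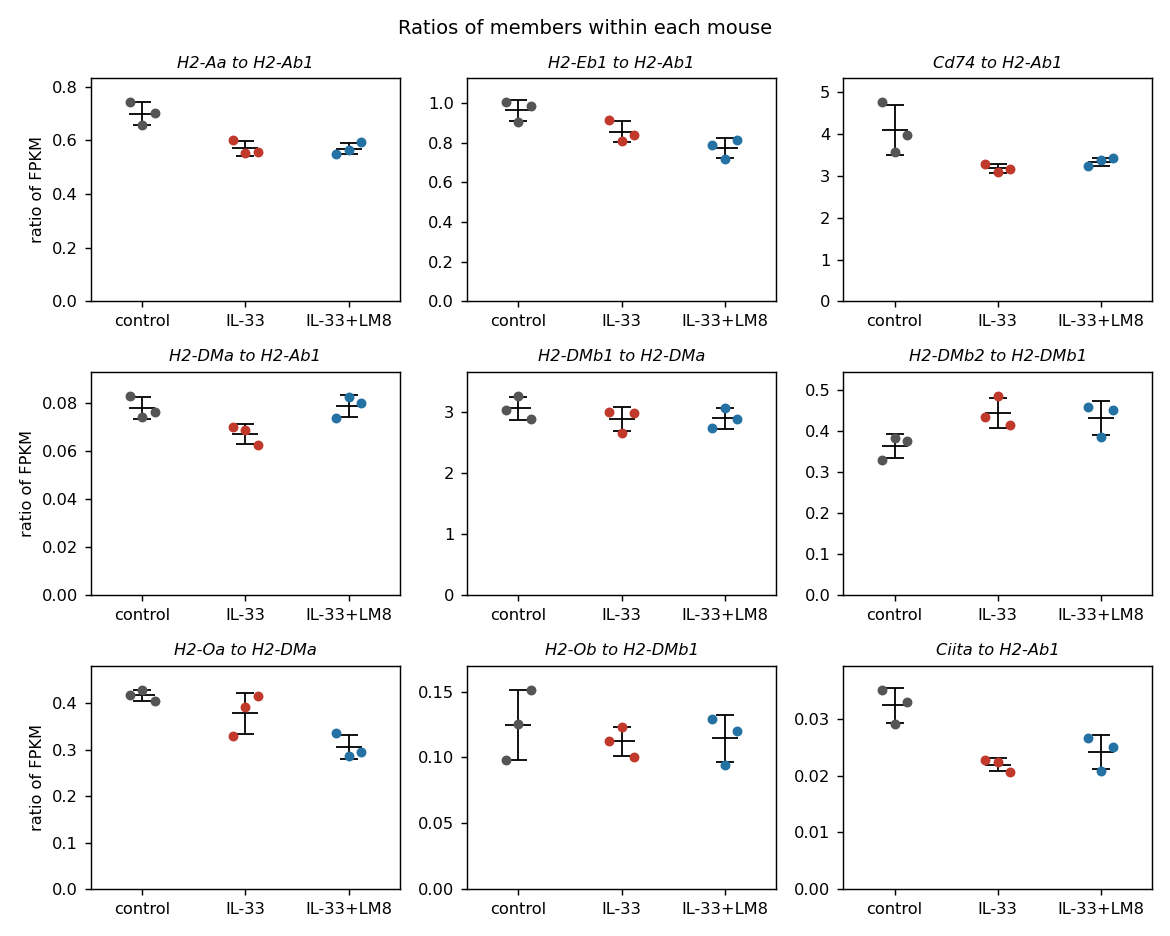
The 9 ratios of FPKM between members within each mouse, 1 panel per ratio with its own linear axis from 0, 1 point per mouse, and the mean and SD of 3 mice. Control mice lie above all other mice in the panels of Ciita, Cd74 and H2-Aa to H2-Ab1.

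Most of the factors that hold the X and Y boxes changed little in RNA. Of the 7 (Rfx5, Rfxank and Rfxap of the RFX complex, Nfya, Nfyb and Nfyc of NF-Y, and Creb1), 1 was higher and 6 did not pass in IL-33 mice, with a median log2 fold change of 0.10. Rfx5 had 5.39 ± 0.398 FPKM in control mice, 7.04 ± 0.308 in IL-33 mice and 5.75 ± 0.271 in the IL-33+LM8 mice (n = 3). Its log2 fold changes were 0.38 (standard error 0.07, adjusted p = 0.0036) and -0.29 for LM8 against IL-33 (standard error 0.07, adjusted p = 0.0172). The log2 fold changes of the other 6 lay between -0.04 for Rfxank and 0.17 for Rfxap under IL-33. Rfxap had a standard error of 0.36 there, too wide to show whether it changed little. Its FPKM was 2.52, 2.71 and 6.02 in control mice, 5.63, 3.66 and 3.39 in IL-33 mice and 3.22, 2.64 and 6.32 in the IL-33+LM8 mice. With LM8 against control mice none of the 7 passed. The summed FPKM of the list was 49.1 to 52.1 in control mice, 51.5 to 54.8 in IL-33 mice and 49.0 to 53.5 in the IL-33+LM8 mice.

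Upstream of Ciita, IFN-gamma is the classical inducer. Ifng was below the filter in these lungs, with 4 to 34 counts per control mouse, 7 to 12 per IL-33 mouse and 8 to 34 per IL-33+LM8 mouse, which overlap. Of the 9 tested genes of the list of inducers and repressors, 5 were higher and 2 lower under IL-33. The lower ones were Irf1, an interferon response factor (-0.35, adjusted p = 0.000337), and the receptor chain Ifngr1 (-0.21, adjusted p = 0.00778). Socs1, a feedback inhibitor of JAK signalling, rose by 3.67 on the log2 scale (standard error 0.69, adjusted p = 0.00322). The kinase Jak2 rose by 1.11 (adjusted p = 1.46e-05) and the receptor chain Ifngr2 by 0.90 (adjusted p = 0.000156). With LM8 against IL-33, 2 were higher and 2 lower. The largest log2 fold changes among those that passed were those of Irf1 (0.65, adjusted p = 0.00524), Jak2 (-0.54, adjusted p = 0.00253) and Ifngr2 (-0.44, adjusted p = 0.00776). Socs1 had -1.20 there and did not pass (adjusted p = 0.263). Its mice were spread within each group, with 0.0828, 0.155 and 0.512 FPKM in control mice. It had 4.71, 1.70 and 3.46 in IL-33 mice and 0.561, 0.565 and 3.12 in the IL-33+LM8 mice. With LM8 against control mice 3 were higher and none lower, led by Jak2 at 0.58, Ifngr2 at 0.48 and Jak1 at 0.27. Irf1 had 0.32 there and did not pass (adjusted p = 0.0751).

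The endosomal enzymes that process antigen and trim the invariant chain moved in the same directions as the members. Under IL-33, 6 of 7 were higher and 1 did not pass, with a median log2 fold change of 1.63. Ctss, cathepsin S, which cleaves the invariant chain, had 86.3, 103 and 83.7 FPKM in control mice, 722, 717 and 710 in IL-33 mice and 214, 246 and 228 in the IL-33+LM8 mice. Its log2 fold change was 2.98 under IL-33 (adjusted p = 1.06e-06) and -1.64 for LM8 against IL-33 (adjusted p = 3.29e-05), larger in size than that of any member. Ifi30, a thiol reductase of endosomes, rose by 2.64 and Lgmn, an endosomal protease, by 1.87. With LM8 against IL-33, 6 of 7 were lower, with Ifi30 at -1.17 and cathepsin B gene Ctsb at -1.02, and with LM8 against control mice 5 were higher, with Ifi30 at 1.49, Ctss at 1.35 and Lgmn at 0.88.

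Of the 3 genes of class II turnover, Marchf1, a ligase that marks class II for degradation, rose by 1.90 under IL-33 (adjusted p = 1.01e-05), and Cd83, which opposes it, by 2.16 (adjusted p = 2.46e-06). Marchf8, a related ligase, fell by 0.36 (adjusted p = 0.000734). With LM8 against IL-33 the log2 fold changes were -0.62, -0.83 and 0.19 in the same order, all of which passed. With LM8 against control mice Marchf1 (1.3) and Cd83 (1.34) were higher and Marchf8 did not pass.

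The costimulation list holds genes of ligands that T cells read beside class II, inhibitory ones such as Pdcd1lg2 included, and of the receptor Cd40. All were higher under IL-33, 7 of 7 with a median log2 fold change of 2.04. The largest differences were in Pdcd1lg2 (PD-L2) at 6.54, Tnfsf4 (OX40 ligand) at 5.10 and Cd80 at 2.30. With LM8 against IL-33, 5 of 7 were lower and 2 did not pass. The log2 fold changes were -2.41 for Pdcd1lg2 (adjusted p = 4.64e-05), -0.52 for Icosl and -0.44 for Cd80 (adjusted p = 0.0451). Tnfsf4 had 1.71, 1.16 and 1.03 FPKM in IL-33 mice and 0.812, 2.38 and 1.63 in the IL-33+LM8 mice, which overlap, and at most 6 counts in a control mouse. With LM8 against control mice 6 of 7 were higher, led by Tnfsf4 at 5.42, Pdcd1lg2 at 4.14 and Cd80 at 1.88.

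The MHC class I pathway moved by less. Under IL-33, 13 of 15 genes were higher, with a median log2 fold change of 0.55, and 1 of them was called. Immunoproteasome gene Psmb8 had 1.06, peptide transporter gene Tap1 0.96 and heavy chain gene H2-D1 0.90. With LM8 against IL-33, 12 of 15 did not pass, with a median of -0.11. There B2m (-0.43) and H2-D1 (-0.38) were lower and Tapbpl (0.38) was higher. With LM8 against control mice 11 of 15 were higher, among them Psmb8 at 0.82, Pdia3 at 0.70 and Calr at 0.67. Whether the class I and class II genes differed from each other was not tested.

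Among markers of cells that carry class II, all those of B cells and most of those of conventional dendritic cells and of interstitial and monocyte-derived macrophages were higher under IL-33, and others were mixed or lower. Their part in the members' values was not tested, and neither was the cell source of any marker's RNA in whole lung. All 8 B cell markers were higher under IL-33 and lower with LM8 against IL-33, with medians of 1.89 and -0.86, and their summed FPKM was 38.7 to 48.3 in control mice, 136 to 175 in IL-33 mice and 88.5 to 103 in the IL-33+LM8 mice. Cd79b, of the B cell receptor, was the most abundant. Of 8 conventional dendritic cell markers, led by Ccr7, 5 were higher and 2 lower under IL-33 (Zbtb46 at -0.45 and Clec9a at -0.73), and 1 was higher and 4 lower with LM8 against IL-33. Their summed FPKM was 40.6 to 44.8, 85.2 to 100.3 and 54.8 to 60.4. Of 8 markers of interstitial and monocyte-derived macrophages, led by Apoe, 7 were higher and 1 lower under IL-33, and 7 were lower with LM8 against IL-33. Their summed FPKM was 294 to 317, 836 to 918 and 374 to 414 in the same order of groups. None of the marker genes of any list was at 0 in all mice.

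Alveolar macrophage markers, led by Car4, were mixed, with 3 higher and 4 lower of 8 under IL-33. Their median log2 fold change was -0.76 while their summed FPKM rose from between 141 and 161 to between 178 and 187. The 3 higher genes were Atp6v0d2 (2.19), Mrc1 (2.19) and Plet1 (0.73), so the rise of the sum does not describe the whole list. The 4 lower ones were Cidec (-1.72), Marco (-1.63), Krt79 (-1.25) and Car4 (-0.57), and Fabp1 did not pass. The markers of plasmacytoid dendritic cells, led by Bst2, were mixed too, with 3 higher and 2 lower of 5 tested, and none of the 5 passed with LM8 against IL-33. Of the 8 markers of alveolar type 2 cells, 4 were lower under IL-33, none was higher and 4 did not pass. Their summed FPKM was 7232 to 7455 in IL-33 mice and 11801 to 12971 in the IL-33+LM8 mice. Most of that sum was Sftpc, with 11030 ± 530.1 FPKM in control mice, 4993 ± 98.04 under IL-33 and 9203 ± 476.9 with LM8 added (mean ± SD, n = 3). The 5 pan-leukocyte genes, led by Coro1a, were all higher under IL-33 and all lower with LM8 against IL-33. Their summed FPKM was 92.7 to 106 in control mice, 398 to 426 in IL-33 mice and 252 to 263 in the IL-33+LM8 mice.

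**Figure D5:**
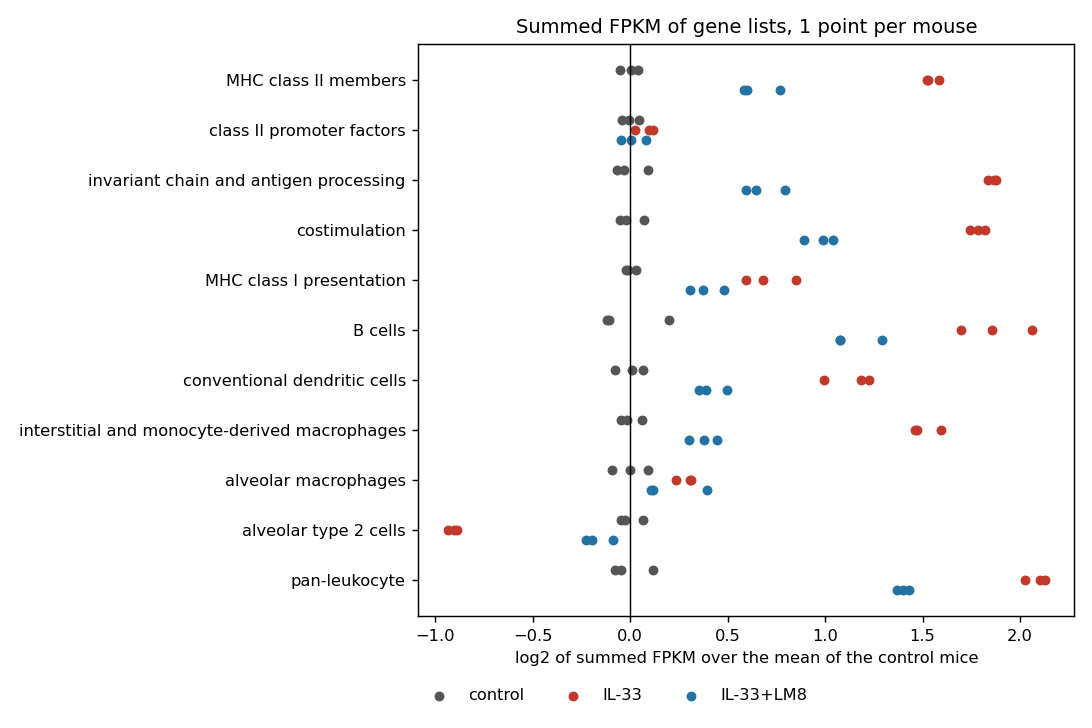
Log2 of the summed FPKM of the 10 members and of 10 other gene lists in each mouse, relative to the mean of the 3 control mice, with 1 point per mouse. The members and the lists of antigen processing, costimulation, MHC class I, B cells, dendritic cells, interstitial macrophages and leukocytes are highest in IL-33 mice. The promoter factors overlap between the groups.

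Markers of other leukocytes moved as well. Of 8 ILC2 markers, led by Klrg1, 7 were higher under IL-33 and 5 lower with LM8 against IL-33. Of 8 T cell markers, led by Trac, 6 were higher and then 2 lower. All 6 tested eosinophil markers, led by Alox15, were higher and then all lower, with medians of 6.58 and -2.17. Neutrophil markers, led by S100a9, did not follow the members: 7 of 8 were higher under IL-33 (Camp did not pass), and all 8 were higher with LM8 against IL-33, with a summed FPKM of 26.7 to 33.5 in control mice, 189 to 212 in IL-33 mice and 875 to 1025 in the IL-33+LM8 mice.

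The genes outside the family whose pattern was most like that of the I-A and I-E chains were ranked by Pearson's r over the 9 mice with the mean log2(FPKM + 1) of H2-Aa, H2-Ab1 and H2-Eb1. The mice fall into 3 groups, so the values mainly restate the group means, and 40 of the 16831 genes ranked had an r over 0.99. The first 5 were Cdk2 (0.995), a cell cycle kinase, Dock10 (0.995), Rgs10 (0.995), a regulator of G protein signalling, Unc93b1 (0.994), which brings Toll-like receptors to endosomes, and Abcg3 (0.994), a transporter. Unc93b1 had 23.9 ± 0.638 FPKM in control mice, 62.7 ± 0.722 in IL-33 mice and 38.2 ± 1.57 in the IL-33+LM8 mice (mean ± SD, n = 3). The other 7 members had an r between 0.967 for H2-Ob and 0.993 for Cd74.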

How the data were processed

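RNA of whole lung was sequenced from 9 mice. The authors deposited raw counts of reads on each gene. The FPKM they deposited beside them is normalized by the authors for length and library size. The submitters' processing notes name HISAT2 2.0, StringTie 1.3.0, Bowtie 0.12.2 and mm10. The starts of 0 of the 10 members lay within 1 kb of their GRCm38 starts, so gene positions are given in the table's own coordinates, and promoter sequences in GRCm38.p6, without conversion.

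Counts were tested with edgeR 4.0.16 (R 4.3.3, TMM, quasi-likelihood) on the 6 mice of each comparison, keeping genes whose FPKM averaged 0.5 or more over 9 mice. Standard errors are the log2 fold change divided by the square root of F. Folds are ratios of mean FPKM. DESeq2 1.42.0, limma 3.58.1 on log2(FPKM + 1) or log2(FPKM + 0.1), other filters and scalings, the replicate number as a block, and leaving out each mouse were alternatives. The fits were tested on simulated counts. Control and IL-33+LM8 mice of the same number deviated together (r of 0.31 to 0.67, against -0.44 to 0.20 for different numbers). By the same measure the IL-33 mice paired by number with neither group. IL-33 replicate 1 did deviate together with replicate 3 of the control mice (r of 0.65) and replicate 3 of the IL-33+LM8 mice (0.67). These pairings come from the data, not from the labels.

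The members and all lists were chosen with earlier results of these data known. Named genes were the members, the promoter factors, H2-Eb2, the 3 largest significant changes of each other pathway list, the most abundant gene of each marker list, and the 5 genes most like the I-A and I-E chains. Other genes were named after their values were seen: Ifng, Ifngr1, Zbtb46, Clec9a and Camp, and the alveolar macrophage markers other than Car4. So were Brd2 and Dexi, which overlap members. The same holds for Irf1 where it was lower or did not pass, and for Socs1, Tnfsf4 and Marchf8 where they did not pass.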

Additional observations from a re-analysis of the deposited data

How the results depend on the processing

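The rise of all 10 members under IL-33 held under each alternative run, in direction and in both call rules, as did the lower level of all 10 with LM8 at an adjusted p under 0.05. No alternative reversed a member. The number of members called lower with LM8 against IL-33, 2, rested on values close to the minimum. It was 1 (H2-Eb1) without a filter on low values, with an FPKM filter of 5, with median-of-ratios or upper-quartile factors, with DESeq2, with limma at either pseudocount and with all 9 mice in one fit. Leaving out 1 mouse gave 0 to 3: it was 0 without IL-33+LM8 replicate 2, 3 without IL-33+LM8 replicate 1, where H2-Ab1 reached -1.0, and 1 without IL-33 replicate 2, IL-33 replicate 3 or IL-33+LM8 replicate 3. The number called higher with LM8 against control, 1, was 0 to 1 when a mouse was left out, and 0 without control replicate 1. The cause was not tested.

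With the replicate number as a block, 10, 2 and 1 members were called in the 3 comparisons, the counts obtained without it. This block changed no member's call. In the comparisons with IL-33 mice the numbers did not match the mice that deviated together, so the block cannot show there what another pairing would do. At an adjusted p under 0.05, H2-Oa with LM8 against control (0.0494) did not pass without a filter (0.0723), with an FPKM filter of 5 (0.0517), or with median-of-ratios (0.0509) or upper-quartile factors (0.0659). Ciita there did not pass with limma (0.0599 with a pseudocount of 1, 0.0584 with 0.1). At a threshold of 0.01, H2-Oa, H2-Ob and Ciita did not pass in that comparison. With 3 mice in a group, a difference of a ratio between members could not pass the exact test.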
